A study of Mus musculus with 24 samples.

Results

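The genes of the IL-10 cytokine cluster are Il10, Il19, Il20 and Il24, which encode secreted cytokines, and the neighbouring kinase gene Mapkapk2. Genes were matched to the array by symbol: a probe set was kept only where a cluster gene was its only annotated symbol, and the brightest probe set would have stood for a gene with several. Each of the 5 genes had exactly 1 such probe set, so the cluster is 5 of the 19938 genes tested. In RefSeq the chromosomal order is Il24, Il20, Il19, Il10 and Mapkapk2, with no other protein-coding gene between the first and the last.

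Interleukin-10 is an anti-inflammatory cytokine made by many activated T cells, including TH2 cells, the helper subset that also makes IL-4 and IL-13. It signals through a receptor built from IL-10RA and IL-10RB, which activates the transcription factor STAT3. IL-19, IL-20 and IL-24 form the IL-20 subfamily and act through other receptor pairs, mainly on epithelial cells. Mapkapk2 encodes MK2, a kinase activated by p38 that stabilises cytokine messenger RNA by phosphorylating decay factors such as tristetraprolin. BATF and BATF3 are transcription factors of the AP-1 family that bind DNA with JUN partners and, in T cells, with IRF4.

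The 24 arrays measured total RNA of naive CD4 T cells from 129SvEv mice. Cells came from mice that were either wild-type (WT) or carried the genotype labelled Batf1/3DKO, called DKO here, with Batf and Batf3 both knocked out. RNA was taken at day 0 without stimulation, on day 2 of a TH2 culture, or on day 4 of one with either 2.2 or 10 ng/ml of anti-CD3e; anti-CD3e engages the T cell receptor, and all cultures also received anti-CD28. Each of the 8 groups held 3 arrays, and n = 3 for every mean below. No anti-CD3e concentration is labelled for the day 2 cultures, which therefore cannot be placed on the dose scale. They do not say whether the 3 arrays of a group came from separate mice or cultures, so the spread behind each p-value is that of these samples and may be technical. As the knockout is labelled by genotype alone, with no cell-type restriction given, the cells had also developed without the deleted genes. The combined conditions ask whether activation of the cluster depends on BATF factors and on the strength of the receptor stimulus.

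Values below are array intensities on a linear scale unless a log2 difference is named. The median of the mean intensities of all genes was 33.3 and serves as a guide to dim signals. Batf, the deleted gene with the brighter signal, lay between 26.7 and 52.1 on the 12 DKO arrays and at 114 or higher on the 12 WT arrays. The genotypes did not overlap, so each array matched its genotype label by Batf. Batf3 reached an intensity of 146 ± 32.8 (SD) in WT cells at 10 ng/ml against 29.8 ± 4.57 in DKO cells, and was near the guide in all other groups. All 7 measured T cell markers had group means above the guide in all 8 groups, with summed intensities from 4358 to 9175 per array. Of the 7 macrophage markers, Cd68 had group means of 56.1 to 81.6 in the 8 groups, and the others, among them Lyz2, Csf1r, Cd14 and Adgre1, were below the guide. Of the 2 CD8 T cell markers, Cd8b1 had group means of 35.9 to 65.4. Of the 5 measured B cell markers, Cd79b reached 88.8 in DKO cells at 10 ng/ml, and the others, among them Ms4a1, Cd79a and Pax5, were below the guide in all groups. The B cell markers summed to 127 to 169 per array there and to 75.1 to 84.5 in WT cells at 10 ng/ml. The 4 NK cell markers summed to 203 to 254 in WT and 530 to 690 in DKO cells at 2.2 ng/ml, of which Eomes, also a T cell factor, made up a mean of 200 and 599. The part of these signals in the results below was not tested. The array of WT cells at 2.2 ng/ml, replicate 3, stood apart from the other arrays of its group in several activation genes: its Irf4 intensity was 588 against 338 and 267, and its Il4 intensity 99.9 against 22.2 and 18.1. Member values that change call or move by over 1.5 times without it are given both ways, as are the differences between doses of the gene lists.

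**Figure D1:**
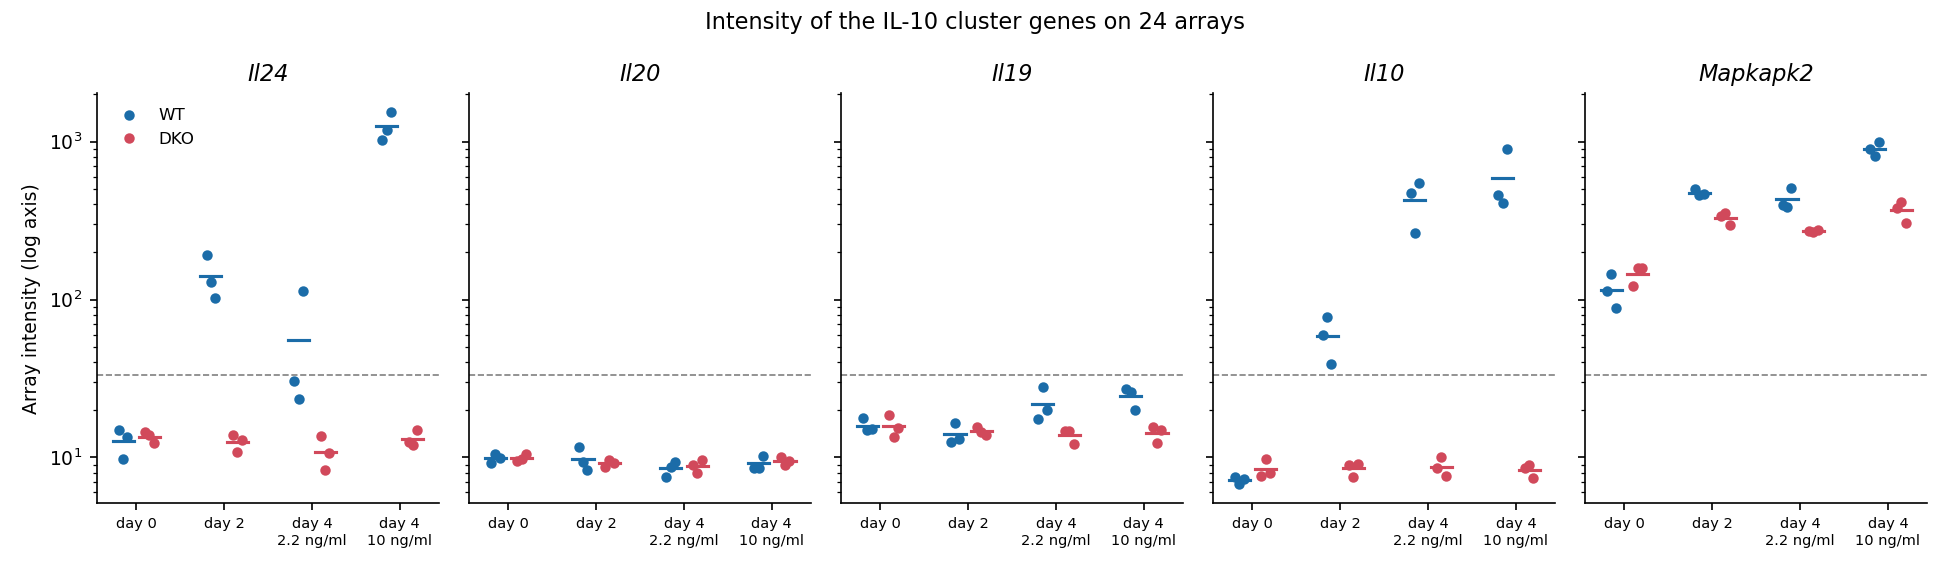
Intensity of the 5 cluster genes (log axis) by genotype and state. Each point is 1 array, short bars are group means of 3 arrays, and the dashed line marks the median of all gene means, 33.3. Il10 lies above the line on all 9 arrays of cultured WT cells, Il24 on all of them except 2 at 2.2 ng/ml, Il20 and Il19 stay below it on all 24 arrays, and Mapkapk2 is above it on all 24.

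Il10 rose from a dim signal to a bright one during culture of WT cells and stayed dim in DKO cells. In WT cells Il10 intensity was 7.6, 6.8 and 7.3 at day 0. At day 2 it was 59.4, 77.7 and 38.9. At day 4 it was 472, 264 and 546 with 2.2 ng/ml anti-CD3e, and 462, 410 and 897 with 10 ng/ml. The arrays of day 0, day 2 and day 4 did not overlap, whereas the arrays of the 2.2 and 10 ng/ml cultures overlapped. The 12 DKO arrays lay between 7.4 and 10.1 with a median of 8.5, so they overlapped WT day 0 and lay below every cultured WT array.

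In WT cells Il10 was 7.84-fold higher at day 2 than at day 0 (95% confidence interval 5.41 to 11.4, adjusted p = 1.3e-09). That difference was 3.14-fold with 16 added to each intensity before the log. With intensities floored at the guide it was 1.69-fold (adjusted p = 0.0472). Il10 was a further 7.24-fold higher at day 4 with 2.2 ng/ml than at day 2 (4.998 to 10.49, adjusted p = 1.15e-07). At 10 ng/ml it stood 77.0-fold above day 0 (53.2 to 111.6, adjusted p = 1.48e-15), or 24.6-fold with 16 added to each intensity before the log and 16.6-fold with intensities floored at the guide. The difference between 10 and 2.2 ng/ml was 1.36-fold, with an interval of 0.936 to 1.97 and an adjusted p of 0.326, so an increase of up to 1.97-fold with dose lies within the measurement. In DKO cells the ratio of day 4 at 10 ng/ml to day 0 was 0.988, with an interval of 0.682 to 1.43.

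Il10 was lower in DKO than in WT cells by 6.65-fold at day 2 (4.59 to 9.63, adjusted p = 5.35e-07), by 47.1-fold at day 4 with 2.2 ng/ml (32.5 to 68.2, adjusted p = 4.07e-13) and by 66.7-fold with 10 ng/ml (46.1 to 96.7, adjusted p = 2.17e-14). The last of these was 23.5-fold with the offset of 16 and 16.6-fold with the floor, and that at day 2 was 2.98-fold with the offset and 1.69-fold with the floor, the latter with an adjusted p of 0.228. At day 0 the ratio of DKO to WT was 1.17 (0.806 to 1.69, adjusted p = 0.924). On these bulk samples, fewer cells that express a gene and less RNA per cell cannot be told apart. A fold against a signal as dim as that of DKO cells can understate a difference in RNA, because nonspecific signal is part of it.

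Il24, the outermost cytokine gene of the cluster, was the member that moved most with the strength of the stimulus. In WT cells its intensity was 14.9, 9.8 and 13.5 at day 0 and 193, 129 and 102 at day 2. At day 4 it was 30.4, 23.4 and 113 with 2.2 ng/ml, but 1020.5, 1188 and 1538 with 10 ng/ml. All 3 arrays at 10 ng/ml exceeded every other array, and at 2.2 ng/ml only replicate 3 reached the range of day 2. The 12 DKO arrays lay between 8.4 and 14.9 with a median of 12.7, within the range of WT day 0 or just outside it.

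In WT cells Il24 was 10.9-fold higher at day 2 than at day 0 (6.53 to 18.1, adjusted p = 2.16e-08), or 5.33-fold with the offset of 16 and 4.09-fold with the floor. At day 4 with 2.2 ng/ml it was 3.16-fold below day 2 (1.90 to 5.25, adjusted p = 0.00266). With 10 ng/ml it was 9.03-fold above day 2 (5.44 to 15.02, adjusted p = 2.96e-07). As no anti-CD3e concentration is labelled for day 2, time and dose cannot be told apart in these differences. The 10 ng/ml cultures were 28.5-fold above the 2.2 ng/ml cultures (17.2 to 47.4, adjusted p = 4.55e-10) and 98.1-fold above day 0, the latter 43.5-fold with the offset of 16 and 36.9-fold with the floor. The size of the 2.2 ng/ml difference from day 2 and that of the dose difference depend on 1 array, without which both are larger. Without replicate 3 of the 2.2 ng/ml cultures, the difference from day 2 was 5.12-fold and the dose difference 46.2-fold. The adjusted p-values were 4.43e-07 and 6.68e-14. The 2.2 ng/ml difference from day 2 had an adjusted p of 0.0663 where only the arrays of the groups compared entered the fit. Against day 0 the 2.2 ng/ml cultures were 3.44-fold higher in Il24 (2.07 to 5.72, adjusted p = 0.000339). Without replicate 3 of those cultures this difference was 2.12-fold (adjusted p = 0.00122). With the floor its call was lost, with an adjusted p of 0.280.

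Il24 was lower in DKO than in WT cells by 11.0-fold at day 2 (6.61 to 18.3, adjusted p = 1.44e-06), by 4.05-fold at 2.2 ng/ml (2.44 to 6.73, adjusted p = 0.000727) and by 94.2-fold at 10 ng/ml (56.7 to 156.7, adjusted p = 1.21e-12). Without replicate 3 of the WT cultures at 2.2 ng/ml the second of these was 2.50-fold, with an adjusted p of 0.00121. It had an adjusted p of 0.0601 where only the arrays of the groups compared entered the fit and of 0.681 with the floor. The difference at 10 ng/ml was 42.9-fold with the offset and 36.9-fold with the floor, and that at day 2 5.37-fold and 4.09-fold. At day 0 the ratio was 1.08 (0.648 to 1.79, adjusted p = 0.983). In DKO cells the 10 ng/ml cultures gave 1.23 times the Il24 intensity of the 2.2 ng/ml cultures, with an interval of 0.737 to 2.04.

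**Figure D2:**
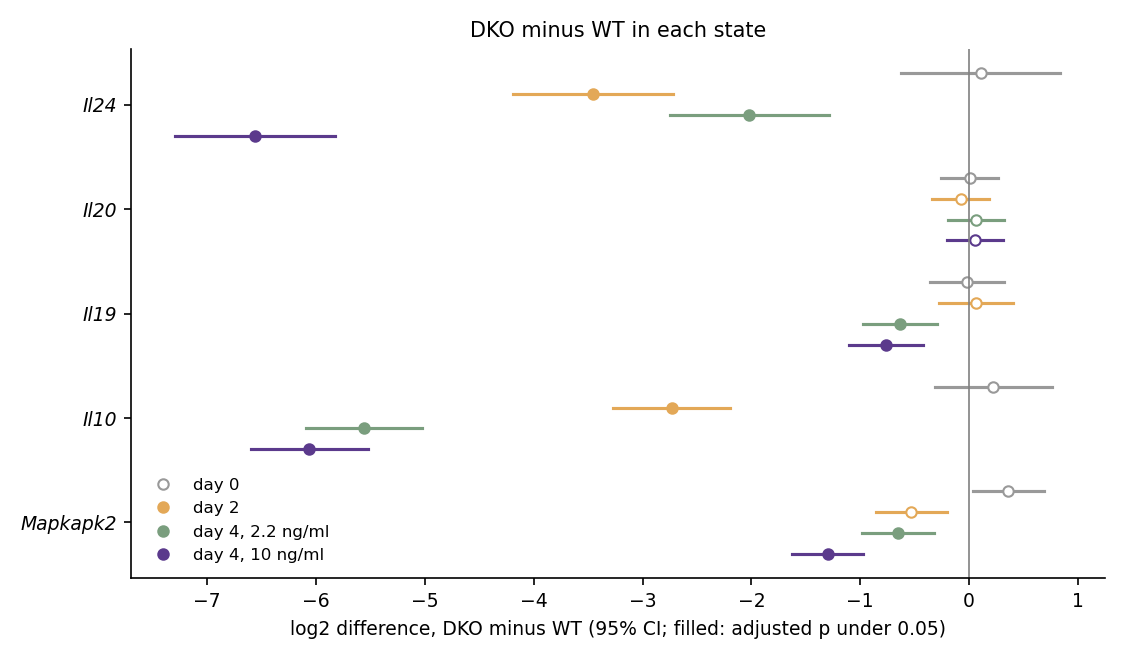
Difference in log2 intensity between DKO and WT arrays (x axis) for the 5 cluster genes in each of the 4 states. Points are estimates from the model over all arrays, lines are 95% confidence intervals and filled points have an adjusted p under 0.05. All points at day 0 are open, and Il10 and Il24 lie furthest to the left in cultured cells.

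Il19 and Il20, which lie between Il24 and Il10, were dim on all arrays. Il19 intensity never exceeded 27.9. In WT cells it was 17.7, 14.95 and 15.02 at day 0, and 12.6, 16.5 and 13.1 at day 2. At day 4 it was 17.6, 27.9 and 20.1 with 2.2 ng/ml and 27.0, 25.9 and 20.1 with 10 ng/ml. The 9 arrays of cultured DKO cells lay between 12.2 and 15.6, below all 6 WT arrays of day 4.

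In WT cells Il19 was 1.52-fold higher at 10 ng/ml than at day 0 (1.20 to 1.93, adjusted p = 0.00487) and 1.35-fold higher at 2.2 ng/ml (1.07 to 1.71, adjusted p = 0.0477). In DKO cells it was lower than in WT cells by 1.55-fold at 2.2 ng/ml (1.23 to 1.96, adjusted p = 0.0274) and by 1.70-fold at 10 ng/ml (1.34 to 2.15, adjusted p = 0.00181). The calls at 2.2 ng/ml were not stable. The difference from day 0 lost its call in 8 of 16 alternatives, with adjusted p-values of 0.295 without WT replicate 2 and 0.0641 without replicate 3 at that dose, 0.124 and 0.136 without replicate 2 or 3 of WT day 0, 0.162 with array weights and 0.119 with only the groups compared. The difference between genotypes lost it in 6 of 16, with adjusted p-values of 0.16 without WT replicate 2, of 0.0545, 0.0548 and 0.131 without DKO replicate 1, 2 or 3, and of 0.119 with only the groups compared. The 2 calls at 10 ng/ml were each lost in 1 of 16 alternatives, the floor. These signals lie below the median of all genes, and Il19 and Il20 did not pass a filter on dim genes that the other 3 members passed. With intensities floored at the guide level Il19 has no measured difference.

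Il20 intensity lay between 7.5 and 11.7 on all 24 arrays, with a median of 9.32. Its WT arrays at 10 ng/ml were 8.6, 8.6 and 10.3, within the range of the 6 arrays of day 0 or just below it. None of the 19 comparisons gave an adjusted p under 0.05 for Il20. The ratio of WT day 4 at 10 ng/ml to day 0 was 0.924, with an interval of 0.772 to 1.11, and that of DKO to WT at 10 ng/ml was 1.04, with an interval of 0.867 to 1.24.

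Mapkapk2, the kinase gene on the other side of Il10, was bright in all groups and rose in both genotypes. In WT cells its intensity was 113, 144 and 87.8 at day 0 and 505, 456 and 465 at day 2. At day 4 it was 400, 388 and 509 with 2.2 ng/ml, and 892, 812 and 990 with 10 ng/ml. The WT arrays at 10 ng/ml exceeded all others, and those of day 2 and of 2.2 ng/ml overlapped. In DKO cells it was 121, 158 and 159 at day 0 and 337, 355 and 298 at day 2. At day 4 in DKO cells it was 272, 268 and 277 with 2.2 ng/ml, and 379, 417 and 305 with 10 ng/ml. All 9 arrays of cultured DKO cells lay above all 6 day 0 arrays, and below the WT arrays of the same state.

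In WT cells Mapkapk2 was 4.22-fold above day 0 at day 2 (3.36 to 5.30, adjusted p = 1.34e-10) and 7.95-fold above it at day 4 with 10 ng/ml (6.33 to 9.99, adjusted p = 1.63e-13). In DKO cells the same differences were 2.27-fold (1.81 to 2.86, adjusted p = 1.88e-06) and 2.51-fold (2.00 to 3.16, adjusted p = 3.07e-07). The dose difference was 2.09-fold in WT cells (1.66 to 2.62, adjusted p = 2.75e-05) and 1.33-fold in DKO cells (1.06 to 1.68, adjusted p = 0.125).

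Mapkapk2 was lower in DKO than in WT cells by 2.46-fold at 10 ng/ml (1.96 to 3.09, adjusted p = 1.66e-06) and by 1.57-fold at 2.2 ng/ml (1.25 to 1.98, adjusted p = 0.017). The latter call was lost without WT replicate 3 at that dose, with an adjusted p of 0.13, and without DKO replicate 1 or 2, with adjusted p-values of 0.0583 and 0.0678. At day 2 the value was 1.44-fold lower, with an adjusted p of 0.0767. At day 0 the ratio of DKO to WT was 1.29 (1.02 to 1.62, adjusted p = 0.66).

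RefSeq windows of 300 bases, 250 before and 50 after the gene start, were held for Mapkapk2, Il19 and Il20. Those of Mapkapk2 and Il19 are shown because both genes had higher day 4 intensity in WT than in DKO cells. Both are on the minus strand of chromosome 1 in GRCm38.p6, at chr1:131097794-131098093 for Mapkapk2 and chr1:130940066-130940365 for Il19. Capitals mark GAAA, the core of an IRF motif, or its complement TTTC.
Mapkapk2: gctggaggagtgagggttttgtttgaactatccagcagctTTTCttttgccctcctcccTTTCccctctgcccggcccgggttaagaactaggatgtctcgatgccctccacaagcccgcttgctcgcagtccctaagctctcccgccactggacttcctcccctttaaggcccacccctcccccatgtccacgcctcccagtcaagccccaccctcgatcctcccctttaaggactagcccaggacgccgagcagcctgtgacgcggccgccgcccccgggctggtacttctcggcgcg
Il19: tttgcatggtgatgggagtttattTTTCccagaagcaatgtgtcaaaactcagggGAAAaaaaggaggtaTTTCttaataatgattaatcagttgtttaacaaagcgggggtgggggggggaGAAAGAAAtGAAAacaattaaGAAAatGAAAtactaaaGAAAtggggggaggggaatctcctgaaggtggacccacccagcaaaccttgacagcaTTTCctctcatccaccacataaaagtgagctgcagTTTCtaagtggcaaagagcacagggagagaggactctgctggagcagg
The AP-1 motif TGANTCA, which reads the same on both strands, was found in 0 of the 3 windows and in 7.81% of all 32817 windows. The 2 composite AP-1 and IRF motifs searched on both strands, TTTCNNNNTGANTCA and GAAATGANTCA, which contain the AP-1 motif, were also found in 0 of the 3 windows and in 0.119% and 0.125% of all windows. GAAA on either strand occurred 11 times in the Il19 window, 4 times in that of Il20 and 2 times in that of Mapkapk2, and 89.2% of all windows hold it. The Mapkapk2 window has 63.3% G and C and 18 CG dinucleotides, that of Il19 44.0% and 1. These are letter matches in short windows and say nothing of a factor's binding.

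Set side by side, the members called in each comparison can be read against the share of all genes called, in either direction unless one is named. In WT cells 3 of 5 members rose by day 2, where 40.2% of all genes were called in either direction. At day 4, 4 of 5 rose above day 0 at each dose, against 29.2% of genes called at 2.2 ng/ml and 36.4% at 10 ng/ml. These comparisons share the day 0 arrays. In DKO cells only Mapkapk2 rose, 1 of 5 in each comparison with day 0, against 28.6% of genes called at day 2, and 19.9% and 30.7% at day 4 with the lower and the higher dose.

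In WT cells at day 4 with 2.2 ng/ml, Il10 and Il19 were higher than at day 2 and Il24 lower, 3 of 5 called against 11.2% of genes. The Il19 difference was 1.53-fold (1.21 to 1.94, adjusted p = 0.0144) and lost its call in 5 of 16 alternatives. Adjusted p-values were 0.145 without WT replicate 2 at 2.2 ng/ml, 0.074 and 0.0638 without replicate 1 or 3 of WT day 2, and 0.0649 with only the groups compared. With 10 ng/ml 4 of 5 were higher than at day 2, against 23.2%. As no anti-CD3e concentration is labelled for day 2, time and dose cannot be told apart in these comparisons. In DKO cells 0 of 5 were called by limma from day 2 to day 4 at either dose, against 6.17% and 5.18% of genes, and no member had an unadjusted p under 0.05 there.

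Between genotypes, 0 of 5 members were called at day 0, where 0.0652% of all genes were. The only member with an unadjusted p under 0.05 there was Mapkapk2. At day 2 Il10 and Il24 were lower in DKO cells, 2 of 5 against 2.71% of genes called. At day 4, 4 of 5 were lower at 2.2 ng/ml, against 3.71% in either direction. The same 4 genes were lower at 10 ng/ml, against 12.8% in either direction and 6.09% lower. Between doses, 2 of 5 members were higher at 10 ng/ml in WT cells, against 15.2% of genes called in either direction and 7.64% higher. In DKO cells 0 of 5 were called by limma, against 8.15%, and Mapkapk2 alone had an unadjusted p under 0.05.

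Whether the responses differed between genotypes was tested directly as a difference of differences. The day 2 response was smaller in DKO cells for Il24 and Il10, 2 of 5 members against 1.05% of genes. For Mapkapk2 that difference was 1.86-fold (1.34 to 2.56, adjusted p = 0.0532), and it was called in 5 of 23 alternatives, among them array weights (adjusted p = 0.0413) and the fit without WT day 0 replicate 2 (adjusted p = 0.0164). The day 4 response at 10 ng/ml was smaller for Il24, Il10 and Mapkapk2, 3 of 5 against 6.52%. For Il19 the difference was 1.68-fold (1.20 to 2.34, adjusted p = 0.0538), called in 6 of 22 alternatives. The response of Mapkapk2 differed by 3.16-fold (2.29 to 4.37, adjusted p = 1.71e-05). The dose response was smaller in DKO cells for Il24 alone, 1 of 5 against 6.94%, and the difference for Mapkapk2 was 1.56-fold (1.13 to 2.16, adjusted p = 0.0933), called in 2 of 23 alternatives.

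**Figure D3:**
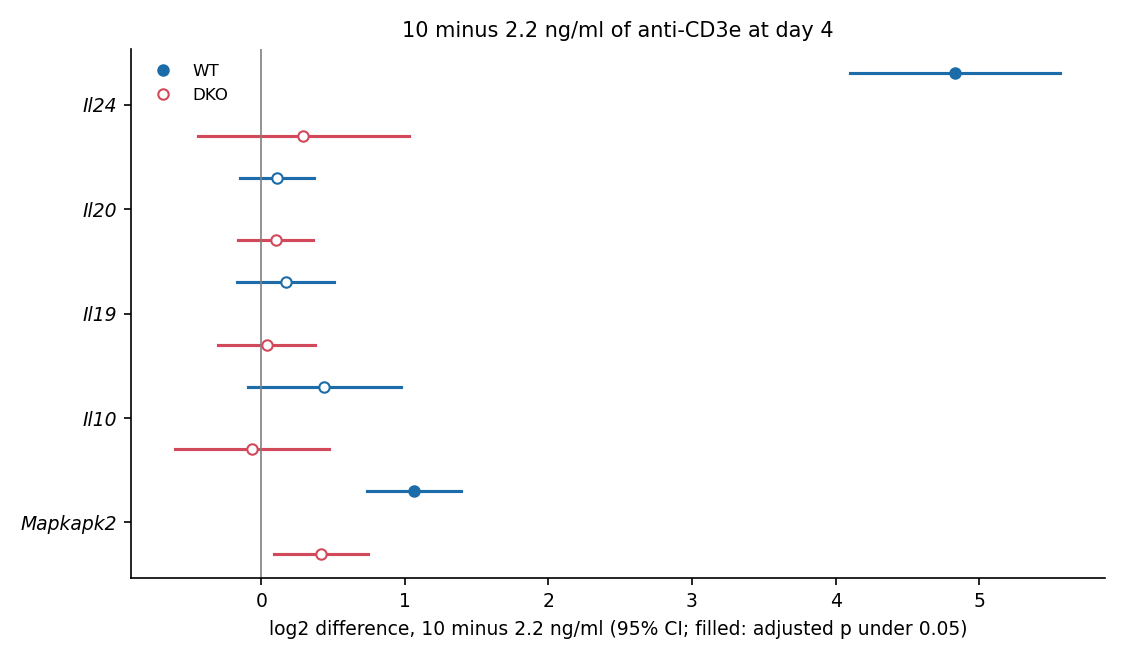
Difference in log2 intensity between 10 and 2.2 ng/ml of anti-CD3e at day 4 (x axis) for the 5 cluster genes in WT and DKO cells. Points are estimates from the model over all arrays, lines are 95% confidence intervals and filled points have an adjusted p under 0.05. The filled points are Il24 and Mapkapk2 in WT cells.

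Il10 and Il24, the 2 strongly induced cytokines, did not change alike between the states of WT cells. The log2 intensity of Il24 minus that of Il10 on the same array changes between states only as the 2 genes change unequally, and its zero has no meaning because the probe sets differ. It was 1.27 ± 0.49 (SD) at day 2, -3.24 ± 0.87 at day 4 with 2.2 ng/ml and 1.15 ± 0.38 with 10 ng/ml. The 3 arrays at 2.2 ng/ml lay below all 3 of either other state. The shift was -4.51 from day 2 to 2.2 ng/ml and 4.39 from 2.2 to 10 ng/ml, and -5.00 and 4.88 without replicate 3 of the 2.2 ng/ml cultures. A two-sided exact permutation test over the arrays gave p = 0.1 for each of the 2 comparisons, also after adjustment over both, which is the smallest value that 3 arrays against 3 allow. Over all 24 arrays, which share genotype and state effects, the log2 intensities of Il10 and Il24 had a Pearson correlation of 0.83, given as a description.

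**Figure D4:**
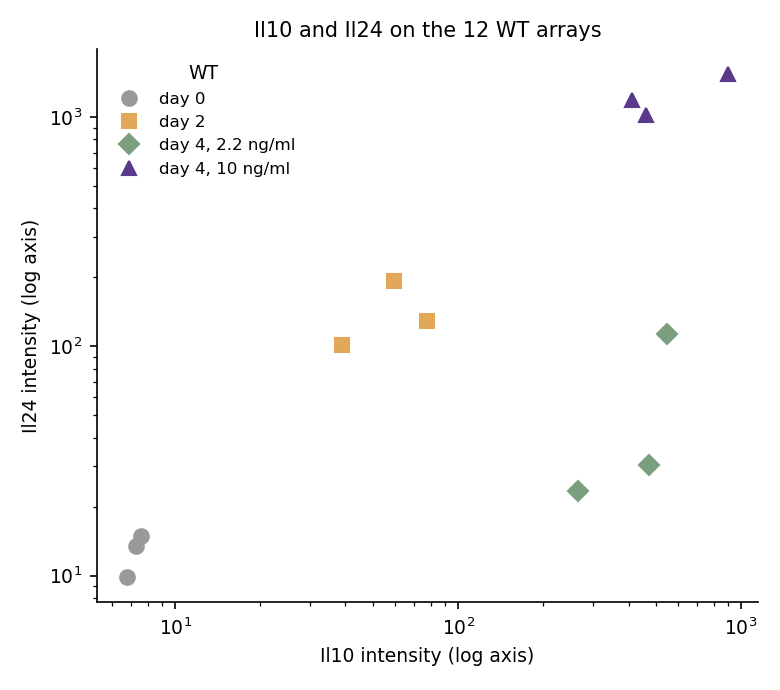
Il24 against Il10 intensity on the 12 WT arrays (log axes), 1 point for each array, with state shown by shape and colour. The cultures at 2.2 ng/ml have Il10 intensities of 264 to 546 that overlap those at 10 ng/ml, while their Il24 intensities of 23.4 to 113 lie far below the 1020.5 to 1538 of 10 ng/ml.

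From WT day 0 to 10 ng/ml, and between genotypes at 10 ng/ml, the 9 genes on either side of the cluster showed smaller differences than Il10 and Il24. At day 4 with 10 ng/ml in WT cells 3 of 9 were higher than at day 0 and 2 lower, with a median log2 difference of -0.14 against -0.10 over all genes, where 18.4% of genes were called higher and 18% lower. The called genes between DKO and WT cells at 10 ng/ml were Fcmr, Pigr and Ikbke, 2 higher and 1 lower of 9 (6.68% of genes were higher and 6.09% lower), with a median of -0.05 against 0.03. Fcmr, an Fc receptor gene next to Il24, had an intensity of 25.6 ± 4.15 in DKO and 38.4 ± 5.82 in WT cells, 1.498-fold lower (adjusted p = 0.00894). Ikbke, a kinase gene beyond Mapkapk2, was 1.62-fold higher (adjusted p = 0.0143), at 266 ± 15.3 against 168 ± 41.4. Pigr, the polymeric immunoglobulin receptor gene, was dim in both and 1.44-fold higher (adjusted p = 0.0425). Rassf5, which encodes a partner of RAP1 in T cell adhesion, was at 209 ± 14.1 in DKO and 253 ± 17.3 in WT cells (adjusted p = 0.175). Between doses in WT cells 1 of 9 was higher, the kinase gene Dyrk3, and 0 lower (7.64% of genes were higher and 7.52% lower), with 1.49-fold (adjusted p = 0.0218). Without replicate 3 of the WT cultures at 2.2 ng/ml these counts were 1 and 0. The dose difference of Il10 in WT cells was smaller than that of Dyrk3, at 1.36-fold (adjusted p = 0.326).

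**Figure D5:**
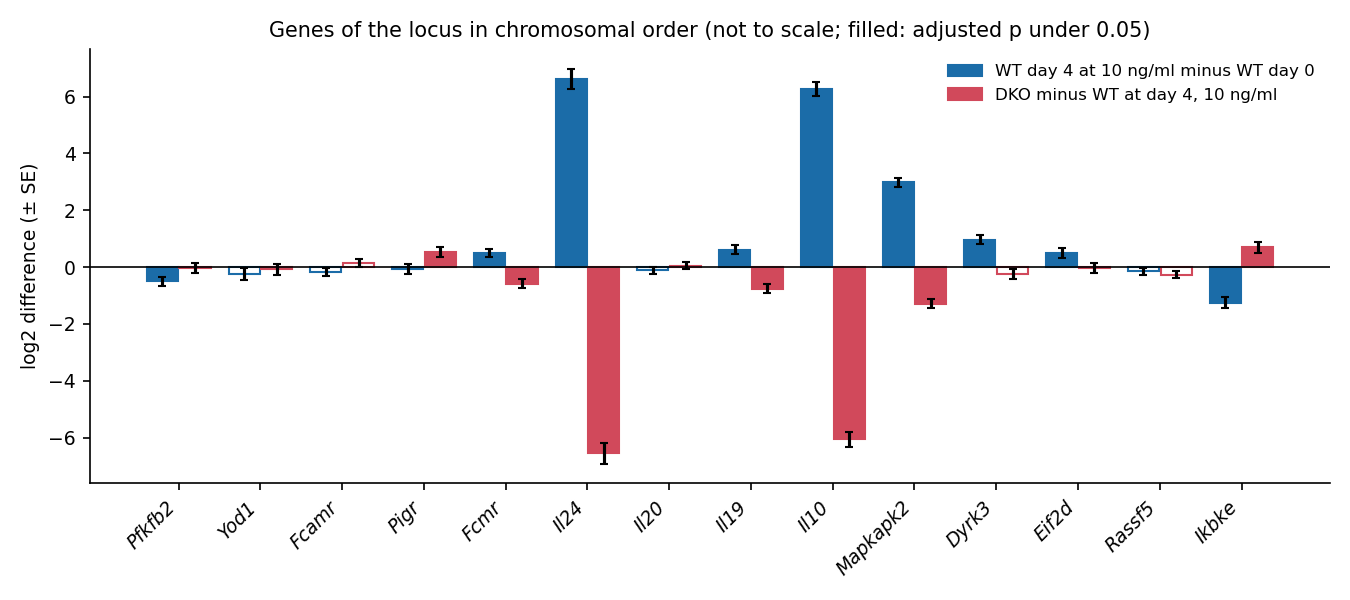
Log2 differences (y axis) for the cluster and its neighbours, drawn in RefSeq order with equal spacing and not to scale. Blue bars are WT day 4 at 10 ng/ml minus WT day 0, red bars are DKO minus WT at day 4 with 10 ng/ml, filled bars have an adjusted p under 0.05 and error lines are standard errors from the model. Il24, Il10 and Mapkapk2 have the tallest blue bars, and Il20 between them is near 0.

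Receptors and other members of the IL-10 family, with their signalling partners, form the first of 3 gene lists set around the cluster. Of its 12 tested genes 4 were lower and 1 higher in DKO than in WT cells at 10 ng/ml, where 6.09% of all genes were lower and 6.68% higher, with a median log2 difference of -0.10 against 0.03 over all genes. Socs3, the STAT3-induced inhibitor of cytokine signalling, had an intensity of 64.3 ± 10.0 in DKO and 382 ± 31.8 in WT cells, 5.98-fold lower (adjusted p = 1.46e-11). Stat3 was 2.62-fold lower (adjusted p = 1.22e-08), at 223 ± 11.1 against 587 ± 63.3. Il10ra, the ligand-binding chain of the IL-10 receptor, was 2.61-fold lower (adjusted p = 0.000747), at 91.2 ± 25.8 against 243 ± 89.8. Il20ra, a receptor chain for the IL-20 subfamily, was dim in both, at 7.97 ± 0.68 against 14.96 ± 4.84, and 1.81-fold lower (adjusted p = 0.000653). In WT cells 4 of the 12 were higher and 1 lower at 10 ng/ml than at day 0, where 18.4% of all genes were higher and 18% lower. Between doses likewise 4 were higher and 1 lower, and 3 and 1 without WT replicate 3 at 2.2 ng/ml, where 7.64% of all genes were higher and 7.52% lower. The medians were 0.01 and 0.02 against -0.10 and -0.04 over all genes.

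Transcription factors reported to regulate Il10 in T cells form the second list, which includes the deleted Batf and Batf3 themselves. Of its 27 genes 13 were lower and 3 higher in DKO than in WT cells at 10 ng/ml (6.09% and 6.68% of all genes), with a median log2 difference of -0.41 against 0.03 over all genes. Batf was 34.4-fold lower (adjusted p = 3.89e-17). Ahr, the aryl hydrocarbon receptor gene, was 10.2-fold lower (adjusted p = 3.31e-13), at 26.7 ± 7.24 in DKO and 270 ± 52.2 in WT cells. Fosl2, an AP-1 family gene, was 8.80-fold lower (adjusted p = 8.87e-13), at 61.7 ± 10.7 against 539 ± 36.6. Prdm1, which encodes BLIMP-1, was 5.26-fold lower (adjusted p = 1.07e-09), at 25.0 ± 3.46 against 131 ± 10.8. Irf4, the partner of BATF, had an intensity of 896 ± 68.4 against 1304 ± 101, with an adjusted p of 0.112.

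Between doses in WT cells 10 of the 27 were higher at 10 ng/ml and 5 lower (7.64% and 7.52% of all genes), with a median of 0.16 against -0.04. The counts were also 10 and 5 without WT replicate 3 at 2.2 ng/ml. Batf intensity was 1595 ± 99.8 at 10 and 1509 ± 125 at 2.2 ng/ml, with an adjusted p of 0.827. Irf4 was 3.46-fold higher at 10 ng/ml (adjusted p = 1.17e-06), Ahr 10.8-fold (adjusted p = 6.76e-13), Fosl2 6.74-fold (adjusted p = 1.9e-11), Batf3 5.02-fold (adjusted p = 2.43e-09) and Prdm1 1.79-fold (adjusted p = 0.00242). Without replicate 3 at 2.2 ng/ml the difference of Irf4 was 4.33-fold (adjusted p = 2.49e-08). The 5 lower genes were Ikzf3 (2.56-fold), Nfatc1 (2.02-fold), Ikzf1 (1.71-fold), Atf1 (1.51-fold) and Creb1 (1.43-fold). Ahr, Fosl2 and Prdm1 were named for their difference between genotypes at 10 ng/ml, which shares the WT arrays of that dose. From day 0 to 10 ng/ml 14 rose and 9 fell in WT cells (18.4% and 18% of all genes), with a median of 0.38 against -0.10.

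The kinases of the p38 pathway, their phosphatases and the messenger RNA decay factors that MK2 controls form the third list. Of its 18 tested genes 4 were higher and 4 lower in DKO than in WT cells at 10 ng/ml (6.68% and 6.09% of all genes), with a median log2 difference of 0.02 against 0.03. Rps6ka5, which encodes the nuclear kinase MSK1, was 5.16-fold lower (adjusted p = 8.74e-10), at 31.1 ± 3.18 in DKO and 160 ± 18.6 in WT cells. Zfp36l1, a tristetraprolin-related decay factor gene, was 2.45-fold higher (adjusted p = 1.1e-07), at 673 ± 58.3 against 275 ± 32.0. Dusp10, a phosphatase gene acting on p38 and JNK, was 2.54-fold higher (adjusted p = 0.00083), at 519 ± 98.4 against 224 ± 111. Mapk14, which encodes p38 alpha, was 1.65-fold higher (adjusted p = 0.00229), at 120 ± 23.7 against 72.4 ± 13.4. In WT cells 3 of the 18 were higher and 6 lower at 10 ng/ml than at day 0 (18.4% and 18% of all genes), with a median of -0.20 against -0.10. Between doses 4 were higher and 5 lower (7.64% and 7.52% of all genes), and 2 and 4 without WT replicate 3 at 2.2 ng/ml, with a median of -0.10 against -0.04.

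The 4533 candidate genes had a mean above 30.2, the median of all probe sets, in at least 1 group. Their group means spanned a log2 range of at least 1. Genes whose log2 intensity followed that of a member most closely over the 24 arrays were taken from these candidates, and the correlations are descriptions without a test. For Il24 they were Inhba (r = 0.976), a subunit of activin A, the TH2 cytokine gene Il13 (0.971), Pparg (0.963), Armcx3 (0.948) and the kinase gene Tec (0.947). Il13 intensity in WT cells went from 48.2 at day 0 to 276 at day 2, then 86.0 at 2.2 ng/ml and 2108 at 10 ng/ml. Inhba went from 23.0 to 172, 147 and 1290. The DKO means of both were at most 56.4. For Il10 the genes were Nts (r = 0.958), which encodes neurotensin, Dock5 (0.955), Cd24a (0.949), Adap1 (0.941) and Rap1gds1 (0.929). Cd24a had WT means of 23.0, 187, 1294 and 728 in the same order of states, so its highest mean was at 2.2 ng/ml. For Mapkapk2 they were Ddb1 (r = 0.976), Nfyb (0.971), Copb2 (0.964), Srp72 (0.960) and Gzf1 (0.960), which like Mapkapk2 also had higher means in cultured than in unstimulated DKO cells.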

How the data were processed

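Total RNA was hybridised to 24 mouse gene arrays, 3 for each of 8 groups of genotype and state. Per the submitters' processing notes the arrays were summarised with RMA, and the values as deposited are intensities on a linear scale, from 1.95 to 14644.9, with array medians of 26.4 to 31.6. Array number limits the precision, and no scan date or batch was given in the sources used here. Of 35556 probe sets, 21789 had 1 gene symbol in the platform table. The 1621 with several symbols and the 12146 with none were left out of the tests. The brightest probe set by mean log2 intensity stood for each of 19938 genes.

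The log2 intensities were fitted with limma 3.58.1 in R 4.3.3, with 1 mean for each of 8 groups over all arrays and 19 contrasts. Folds are powers of 2 of log2 differences with 95% confidence intervals. P-values were Benjamini-Hochberg adjusted within a contrast over all genes, and a gene was called at an adjusted p under 0.05. The procedure was tested on simulated data. Alternatives tried were a filter on dim genes (the median of gene means reached on at least 3 arrays), all probe sets, their mean, cyclic loess, quantile normalization, only the compared groups, a replicate block, robust trended moderation, array weights, an offset of 16, a floor at the median of gene means and leaving out each array. The floor was added after seeing the data, as were the gene-list dose differences and the Il24 minus Il10 difference without replicate 3 of the WT cultures at 2.2 ng/ml.

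The cluster genes and the gene lists were chosen with earlier results of these data known. Genes named beside the cluster are Batf, Batf3 and Irf4, up to 4 genes of each list with the smallest p between DKO and WT at 10 ng/ml, and the 5 genes most correlated with each member whose group means spanned a log2 range of at least 1. Il4 was named outside these rules. Dyrk3 and the marker genes were named after their values were seen. Windows around gene starts are from RefSeq, GRCm38.p6.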

Additional observations from a re-analysis of the deposited data

Results flagged for a closer look

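The response to culture differed between genotypes for 3 members, by the model's test of the difference itself, with DKO minus WT given on the log2 scale. The day 2 response of Il24 differed by -3.56 (adjusted p = 0.00042) and that of Il10 by -2.96 (adjusted p = 8.85e-05). The day 4 response at 10 ng/ml differed by -6.67 for Il24 (adjusted p = 1.51e-09), by -6.28 for Il10 (adjusted p = 2.15e-11) and by -1.66 for Mapkapk2 (adjusted p = 1.71e-05). The response of Il24 to the higher dose differed by -4.54 (adjusted p = 1.49e-06), and by -5.24 without replicate 3 of the WT cultures at 2.2 ng/ml. In each case all 3 WT arrays of the treated state lay above all 3 DKO arrays. The 2 day 2 differences were not called with intensities floored at the median of gene means, where Il24 differed by -2.03 (adjusted p = 0.0575) and Il10 by -0.76 (adjusted p = 0.581).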

How the results depend on the processing

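The counts of members called were recomputed under 341 combinations of comparison and alternative. They stayed within 1.5 times the reported count in 329 and moved in 12, and no called difference changed sign. With intensities floored at the median of gene means, an alternative chosen after seeing the data, the counts were 2 for WT at 2.2 ng/ml against day 0, 1 between genotypes at day 2, 2 between genotypes at 2.2 ng/ml and 0 for the difference in the day 2 response; the floor removes by construction all differences below it. With only the compared groups in the fit, which leaves fewer arrays to estimate the spread, 1 member was called for WT at 2.2 ng/ml against day 2 and 2 between genotypes at 2.2 ng/ml. Leaving out 1 array, the latter count ranged from 2 to 4, with 2 reached without DKO replicate 1 or 2. Under cyclic loess and under array weights Mapkapk2 was added, giving 1 member for the dose difference in DKO cells and 2 for the difference in the dose response; the cause was not tested.

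Among single genes, calls were lost in 22 alternative values for Il19, 5 for Il24, 3 for Mapkapk2 and 2 for Il10, and gained in 6 for Il19 and 10 for Mapkapk2. Differences called in neither fit were counted as changed in sign in 25 values for Il20, 21 for Il19, 19 for Il10 and 8 for Il24. At least the counts of Il20 and Il19 include differences that the floor brought to 0, which are not changes of sign. Cyclic loess moved the median log2 difference of all genes from -0.11 to 0.00 for WT day 2 against day 0 and from -0.10 to 0.00 at 10 ng/ml. Of 84 pairs of same-numbered arrays, 8 correlated above 0.1 in their deviations from group means (-0.20 to 0.34). The 3 pairs between WT cultures at 2.2 and 10 ng/ml were all positive, at 0.07, 0.19 and 0.34. Pairs with different numbers were not examined, so whether same-numbered arrays deviate together was not tested. The replicate block changed 0 of 19 counts and 0 calls of members.

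Over all genes, the count between genotypes at day 0 was 13, but 4 under cyclic loess, 2 with the compared groups alone, 6 with array weights and 29 with the floor. At 2.2 ng/ml between genotypes it was 739, and 462 with the compared groups alone. Leaving out an array moved some counts by over 1.5 times, at most from 1230 to 564 for DKO at 2.2 ng/ml against day 2, from 1033 to 583 for DKO at 10 ng/ml against day 2, from 2233 to 1223 for WT at 2.2 ng/ml against day 2, and from 1625 to 1058 for the dose difference in DKO cells. Between genotypes these were 13 to 4 at day 0, 541 to 298 at day 2 and 739 to 489 at 2.2 ng/ml, and 209 to 98 for the difference in the day 2 response. The dimness of Il20 and Il19 limits what their probe sets can show.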

Other observations

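Il4 and Il13, the defining TH2 cytokine genes outside the cluster, can be set beside Il24 as values. Il4 intensity in WT cells was 229 ± 8.77 (SD, n = 3) at day 2; with 2.2 ng/ml it was 46.7 ± 46.1, and 330 ± 61.7 with 10, and it was between 16.1 and 25.6 on the 12 DKO arrays. On replicate 3 of the WT cultures at 2.2 ng/ml, where Il24 was 113, Il4 was 99.9, while on the other arrays of that group Il24 was 30.4 and 23.4 and Il4 was 22.2 and 18.1. Il10 on the same 3 arrays was 472 and 264 on the first pair and 546 on replicate 3, and Batf was 1424 and 1451 against 1652.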
